A study of Homo sapiens with 12 samples.

Results

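PC3 and DU145 are established human prostate cancer cell lines, and their gene expression was compared directly across all genes. The members were the 4 PC3 and the 4 DU145 RNA-sequencing libraries, which are 8 of the 12 libraries of the series and were chosen by their labels. The other 4 libraries are from BPH-1, a benign prostate epithelial line, and are given only where they place a value. All libraries were labelled WT, with no treatment named, and were made from TRIzol-extracted total RNA. The lines were grown in DMEM with fetal bovine serum and penicillin-streptomycin. Each group is a single cell line, so a difference between PC3 and DU145 is a difference between these 2 lines. The labels do not say whether the 4 libraries of a line came from separate cultures, so p-values measure the spread between these libraries, which may be technical.

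PC3 was derived from a bone metastasis and DU145 from a brain metastasis of prostate cancer, and both grow without androgen. Prostate luminal cells depend on androgen signalling and on transcription factors such as FOXA1 and HOXB13. Lines that grow without androgen have lost much of that programme, and they are widely used as models of advanced disease. Both lines carry known genetic lesions. PC3 is known for loss of alpha-catenin, among others, and DU145 for altered RB1.

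Values were deposited as FPKM, that is, fragments scaled to gene length and to library depth. The length that fits the values sums all distinct annotated exons of a gene, so overlapping exons count more than once. A gene with many annotated exons thus has a lower FPKM for the same reads. Levels of different genes are therefore not directly comparable, and sums of FPKM over genes weigh them unequally. The depth, recovered from the steps between low values, was 13416256 to 16309633 reads in DU145 and 12950668 to 13871723 reads in PC3. Summed FPKM was 289756 to 302456 in DU145 and 293492 to 306698 in PC3 (exact permutation test, two-sided, p = 0.286, where the smallest p possible for 4 against 4 libraries is 0.0286). At least 10 reads were found for 15838 to 16496 genes in a DU145 library and for 14660 to 15153 genes in a PC3 library (exact permutation test, two-sided, p = 0.0286). Depth moved in the same direction, and its part in that count was not tested.

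The libraries of a line were not alike in 2 respects. First, after removal of the line means, the first principal component held 71.3% of the remaining variance. It set DU145 replicates 2 and 4 (positions 0.481 and 0.371) apart from replicates 1 and 3 (-0.293 and -0.559), and PC3 replicate 4 (-0.388) from PC3 replicates 1 and 2 (0.212 and 0.196). The weight of a gene on this component had a Spearman correlation of -0.71 with its GC content over 16210 genes, which are not independent replicates. Second, transcripts of white blood cells were read in DU145 replicates 1 and 2 but not in replicates 3 and 4. PTPRC, the CD45 surface phosphatase of white blood cells, had 275, 256, 0 and 0 reads in DU145 replicates 1 to 4 and 0 reads in each PC3 library. FCGR3B, a neutrophil Fc receptor, had 244, 269, 0 and 0 reads in DU145 and 0 in PC3. LYZ, lysozyme, had 326, 365, 0 and 0 reads in DU145 and at most 6 in PC3. The 4 BPH-1 libraries held 225 to 295 reads of PTPRC. The pair of DU145 replicates 1 and 2 had 82 genes with at least 10 reads in both and at most 1 read in either of the other replicates, and 72 of these 82 also had at least 10 reads in every BPH-1 library. For the other 5 pairings of DU145 libraries this number was 5 to 20, and it was 1 to 8 for the 6 pairings of PC3 libraries. In DU145 replicates 3 and 4 the genes of this kind were 8, among them the fibroblast matrix gene DCN (0, 0, 102 and 51 reads) and THY1 (0, 0, 52 and 24 reads). Because of this, counts are also given for each pair of DU145 replicates alone. Libraries correlated more closely within a line (Spearman 0.94 to 0.982 in PC3 and 0.866 to 0.977 in DU145) than between lines (0.695 to 0.79).

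Of 58302 annotated genes, 16210 had enough reads to be tested. At a limma adjusted p under 0.05, 3240 genes were higher in PC3 (20% of those tested) and 4581 were higher in DU145 (28.3%), which makes 7821 genes or 48.2% in all. With a correction for GC content, which also evens out the level of the libraries, the counts were 4783 and 4767. The excess of genes higher in DU145 was not seen there. Scaling by the median of ratios between libraries, without GC content, gave 3528 and 3952. The separate part of GC content in this was not tested. In 7531 genes (46.5%) the 4 libraries of one line all lay above the 4 of the other. More than a 2-fold difference in addition was found for 1345 genes higher in PC3 (8.3%) and 1820 higher in DU145 (11.2%). Differences are given as log2 fold changes of PC3 against DU145 on the scale log2(FPKM + 1), with the standard error of the limma fit. This scale understates the change of genes with low values. The median over all tested genes was -0.05. With DU145 replicates 1 and 2 alone, 2735 genes were higher in PC3 and 4228 in DU145, and with DU145 replicates 3 and 4 alone the counts were 2444 and 3929. In bulk RNA, fewer cells that express a gene and less RNA per cell cannot be told apart.

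**Figure D1:**
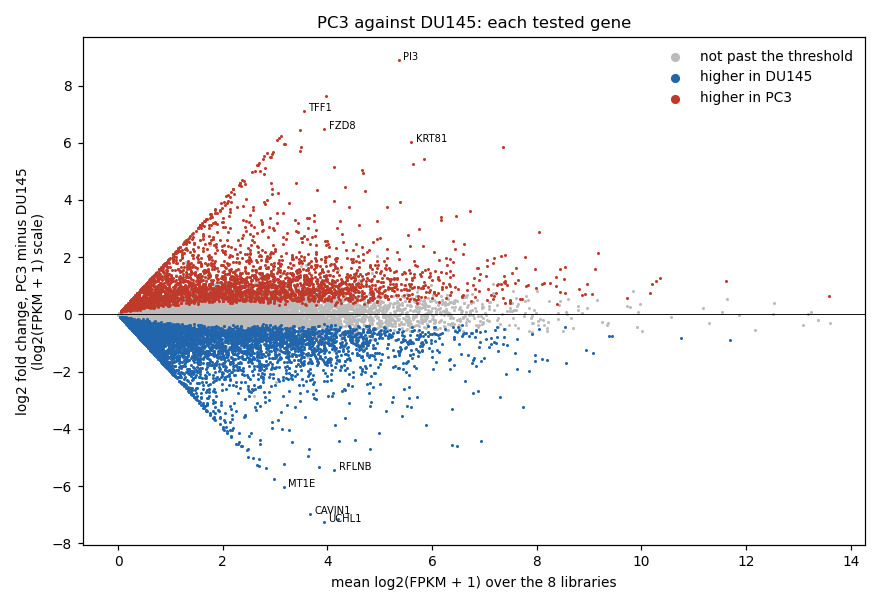
Log2 fold change of PC3 against DU145 (y axis, log2(FPKM + 1) scale) against the mean log2(FPKM + 1) over the 8 libraries (x axis) for each tested gene, with genes past a limma adjusted p of 0.05 in red (3240 higher in PC3) and blue (4581 higher in DU145). Differences of several log2 units lie in both directions, from -7.25 for UCHL1 to 8.88 for PI3.

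Antisense and long intergenic non-coding RNAs had larger shares of genes higher in DU145 than protein-coding genes. Of 13170 protein-coding genes, 20.3% were higher in PC3 and 26.2% higher in DU145. Of 682 antisense genes, 98 (14.4%) were higher in PC3 and 365 (53.5%) higher in DU145, with a median log2 fold change of -0.38. Of 548 lincRNA genes the numbers were 100 and 281. Processed pseudogenes went the other way, with 206 of 883 higher in PC3 and 142 higher in DU145. The strand setting of the counting is not stated, so antisense reads and reads of the overlapping gene cannot be told apart, and pseudogenes share sequence with their parent genes.

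The gene with the largest difference was PI3, which encodes elafin, a secreted inhibitor of elastase. Its FPKM was 0.856, 0.425, 1.24 and 1.16 in the 4 DU145 libraries and 727, 959, 1241 and 729 in the 4 PC3 libraries. The lines did not overlap, and the mean was 994-fold higher in PC3 (log2 fold change 8.88 ± 0.22, limma adjusted p = 2.92e-08). TFF1, a secreted mucosal trefoil peptide, had no read in any DU145 library and an FPKM of 100.3, 113, 164 and 183 in PC3. Set against a floor of 3 reads in each DU145 library, this was at least 392-fold higher in PC3 (log2 fold change 7.09 ± 0.20). FZD8, a receptor for WNT ligands, had 0.842, 0.335, 0.804 and 0.573 in DU145 and 125, 148, 141 and 161 in PC3 (225-fold, log2 fold change 6.47 ± 0.15). HOXB13, a homeobox factor of the prostate lineage, was read in PC3 at an FPKM of 69.4, 75.3, 81.1 and 71.3 and had no read in DU145, so it was at least 1309-fold higher in PC3 (log2 fold change 6.23 ± 0.12). PRAC1, its neighbour on chromosome 17, likewise had no read in DU145 and a mean FPKM of 68.1 ± 16.7 (SD, n = 4) in PC3.

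The other 5 of the 10 protein-coding genes with the largest rise in PC3 had log2 fold changes from 5.95 to 6.43. MAL2, a membrane protein of apical transport, had an FPKM of 128, 163, 125 and 42.1 in PC3, with replicate 4 far under the others, and 0.143, 0.3, 0.167 and 0.192 in DU145. SHISA3, which encodes an endoplasmic reticulum protein that retains FZD receptors, had no read in DU145 and 71.9 ± 16.3 (SD, n = 4) in PC3. KRT81, a hair keratin, had 5.34 ± 2.27 in DU145 and 400.3 ± 107 in PC3. ANPEP, the membrane peptidase CD13, had 0.154 ± 0.127 and 71.3 ± 6.9, and PKP1, a desmosome plaque protein, 0.14 ± 0.0387 and 72 ± 21.1. All 10 genes were past the threshold with no overlap of the lines, as the rule for naming them required. Among genes of other types, the non-coding RNA LINC02582, picked after its values were seen, had 0.0442, 0.11, 0.255 and 0.0801 in DU145 and 224, 254, 217 and 187 in PC3.

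In the other direction, UCHL1, a ubiquitin hydrolase that is abundant in neurons, had the largest difference. Its FPKM was 214, 159, 245 and 147 in DU145 and 0.221, 0.209, 0.376 and 0.169 in PC3, so the mean was 786-fold higher in DU145 (log2 fold change -7.25 ± 0.18, limma adjusted p = 2.92e-08). ANKRD1, a mechanically responsive target of the YAP coactivator, had 188, 343, 151 and 235 in DU145 and 0.702, 0.516, 0.401 and 0.585 in PC3 (log2 fold change -7.15 ± 0.24). CAVIN1, the coat protein of caveolae, had 149.8, 121, 192 and 114 in DU145 and 0.0807, 0.133, 0.301 and 0.0605 in PC3 (log2 fold change -6.96 ± 0.18). No PC3 library came near the lowest DU145 library for any of these 3 genes.

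The next 6 described here had log2 fold changes from -6.04 to -5.28. MT1E, a metallothionein that binds zinc and copper, had 73.9 ± 21.5 in DU145 and 0.108 ± 0.136 in PC3, although reads of the near-identical metallothionein genes may be split among copies. TGFBI, a matrix protein induced by TGF-beta, had 44.5 ± 5.83 and 0.101 ± 0.0347. TNFRSF10D, a decoy receptor for the death ligand TRAIL, had 42.9, 24.3, 45.5 and 45.4 in DU145, with replicate 2 under the others, and at most 3 reads in a PC3 library. It was at least 623-fold higher in DU145. RFLNB, a regulator of filamins, had 117 ± 25.6 in DU145 and 1.69 ± 0.48 in PC3, and IGFBPL1, a protein related to the binders of insulin-like growth factors, had 39.7 ± 6.71 and at most 2 reads in a PC3 library. The cancer-testis gene XAGE1A had 58.3 ± 15 in DU145 and at most 3 reads in PC3, and a near-identical copy of it lies nearby, so its level is uncertain.

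**Figure D2:**
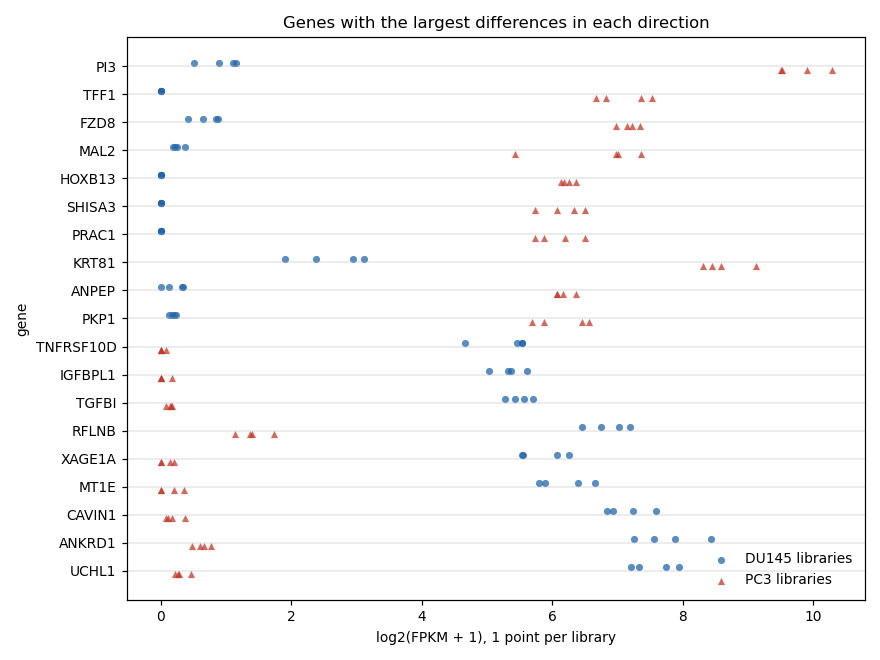
Log2(FPKM + 1) (x axis) in each of the 4 DU145 libraries (blue circles) and 4 PC3 libraries (red triangles) for the protein-coding genes with the largest differences (y axis), 10 higher in PC3 and 9 higher in DU145. The groups do not overlap for any of the 19 genes, and TFF1, HOXB13, SHISA3 and PRAC1 lie at 0 in all DU145 libraries.

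The sequence just before the start of the gene is shown for FZD8 and IGFBPL1, the genes that differed most in either direction among those for which RefSeq's promoter table (GRCh38.p14) holds a 250-base upstream window that lies outside the annotated gene. The FZD8 window is chr10:35642297-35642546 and the IGFBPL1 window is chr9:38424455-38424704, both on the minus strand and written 5′ to 3′. Capitals mark CG dinucleotides and the letters TATAAA on either strand.
FZD8: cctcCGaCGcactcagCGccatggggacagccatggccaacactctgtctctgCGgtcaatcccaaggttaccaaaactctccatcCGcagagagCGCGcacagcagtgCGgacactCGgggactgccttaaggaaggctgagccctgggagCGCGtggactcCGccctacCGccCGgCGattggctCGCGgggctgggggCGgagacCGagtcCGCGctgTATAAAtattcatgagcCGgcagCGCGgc
IGFBPL1: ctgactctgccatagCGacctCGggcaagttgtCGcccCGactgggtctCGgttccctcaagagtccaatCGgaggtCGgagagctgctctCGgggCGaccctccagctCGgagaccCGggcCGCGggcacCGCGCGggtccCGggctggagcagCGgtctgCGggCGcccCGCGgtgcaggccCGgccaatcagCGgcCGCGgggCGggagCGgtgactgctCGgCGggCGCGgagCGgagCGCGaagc
The FZD8 window holds 24 CG dinucleotides and one TATAAA that starts at -29 from the RefSeq start. The IGFBPL1 window holds 35 CG dinucleotides and no TATAAA. Over the full 300-base windows of the table, which add 50 bases after the start, the median was 14 CG dinucleotides in all 27305 windows of the table and 26 in those of 10319 tested protein-coding genes. It was 26 both for genes higher in PC3 (2066 windows) and for genes higher in DU145 (2597 windows), against 27 for genes not past the threshold. TATAAA on either strand was found in 5.08% and 5.89% of the windows of genes higher in PC3 and in DU145, in 5.39% of those of all tested protein-coding genes, and in 12% of all windows in the table.

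Genes of the androgen axis are given next. KLK3, which encodes prostate-specific antigen, had no read in any of the 8 libraries, so it cannot tell the labels PC3 and DU145 apart. Of 18 listed genes of the androgen axis and of prostate differentiation, 13 were tested, of which 10 were higher in PC3 and 3 higher in DU145, shares of 76.9% and 23.1% against 20% and 28.3% of all tested genes (median log2 fold change 0.89, against -0.05 over all tested genes). SPDEF, an ETS factor of luminal epithelium, had 0, 0.0533, 0 and 0 in DU145 and 41.2, 47.5, 51.2 and 42.6 in PC3 (log2 fold change 5.52 ± 0.13). FOXA1, a pioneer transcription factor of prostate epithelium, had 5.56, 7.16, 5 and 7.61 in DU145 and 38.8, 37.6, 35.8 and 31.7 in PC3 (log2 fold change 2.35 ± 0.15). TMPRSS2, an androgen-regulated surface protease, had a mean FPKM of 2.38 in PC3 and at most 3 reads per library in DU145 (at least 111-fold higher in PC3). PMEPA1, a target of androgen and of TGF-beta, went the other way and was higher in DU145 (-1.78 ± 0.18).

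Genes known to be lost or altered in one of the lines were listed, and the largest differences among those described here were in CTNNA1, STAT3 and STAT5B. CTNNA1, alpha-catenin, which links cadherins to actin, had an FPKM of 35.7, 34.1, 30.8 and 30.8 in DU145 and 0.0514, 0.0381, 0.0719 and 0.0367 in PC3, a mean 663-fold higher in DU145 (log2 fold change -5.01 ± 0.13, limma adjusted p = 2.92e-08). The lines did not overlap. The following members of this list differed less. CDKN2A, which encodes the p16 inhibitor of cyclin-dependent kinases, had 23.1, 17.7, 40.3 and 16.9 in DU145 and 9.77, 10.9, 11.8 and 10.4 in PC3 (log2 fold change -1.04 ± 0.25). RB1, the retinoblastoma protein, had 0.62, 2.26, 0.203 and 1.77 in DU145 and 3.02, 2.36, 1.23 and 0.475 in PC3, so that the lines overlapped over most of their range. BAX, MTAP and STK11 did not pass the threshold (log2 fold changes 0.42, 0.31 and -0.37). Messenger RNA levels do not show whether the protein is made or mutated.

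Also on this list, STAT5B, STAT5A and STAT3, lie side by side on chromosome 17, and the window of 10 neighbouring tested protein-coding genes around them had the lowest median of all 12933 such windows, which overlap one another, tied with the windows that start 1, 2 and 3 genes later. Its edges are therefore arbitrary, and further windows are given only where they do not overlap one already described. It spans 42025576 to 42423517 (GRCh38, 398 kb), from ZNF385C to CAVIN1, and all 10 genes were higher in DU145 (median log2 fold change -3.91, against -0.03 for the median window). STAT3, the signal transducer of interleukin-6, had 25.4, 25.5, 24.8 and 21.2 in DU145 and 0.0315, 0.0446, 0.0588 and 0.0315 in PC3 (log2 fold change -4.59 ± 0.13). STAT5A had 4.89, 4, 4.78 and 3.59 in DU145 and no read in PC3, at least 216-fold higher in DU145. STAT5B had 20, 13.4, 20.4 and 14.7 in DU145 and at most 2 reads in PC3, at least 600.3-fold. Their neighbours went the same way: KAT2A, a histone acetyltransferase, was at least 486-fold and RAB5C, an endosome GTPase, at least 473-fold higher in DU145, with at most 3 reads in any PC3 library. The annotated gene AC099811.2 overlaps both KAT2A and RAB5C, and C17orf113 lies within ZNF385C. These genes may share reads, so the 10 are not all separate neighbours. Genes outside the window also differed. NKIRAS2, just before it, had a log2 fold change of -0.85, and ATP6V0A1 and NAGLU, just after it, had -2.12 and -2.46, whereas HSD17B1 beyond them had -0.03. Of the 24 tested genes flanking the window, 12 on each side, 16 were higher in DU145 and 1 in PC3, with a median of -0.61. Over all tested protein-coding genes, 26.2% were higher in DU145 and 20.3% higher in PC3.

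The 2 windows with the highest medians lay close together on chromosome 10. The first spans 73253759 to 73801797 (GRCh38), from CFAP70 to ZSWIM8, and all 10 genes were higher in PC3 (median log2 fold change 1.82). The second spans 75233969 to 79445627, from COMTD1 to ZCCHC24, with 8 genes higher in PC3 and 1, LRMDA, higher in DU145 (median 1.8). Of all 31 tested protein-coding genes from CFAP70 to ZCCHC24, 27 were higher in PC3 and 1 in DU145, against 20.3% and 26.2% of all tested protein-coding genes. SEC24C, a coat protein of vesicles leaving the endoplasmic reticulum, had 15.5, 11.7, 24.4 and 17.7 in DU145 and 113, 110.3, 115 and 154 in PC3 (log2 fold change 2.79 ± 0.22). POLR3A, the largest subunit of RNA polymerase III, had 15 ± 1.8 in DU145 and 78.2 ± 12.3 in PC3, and PPIF, the mitochondrial cyclophilin D, 42.1 ± 11.8 and 233 ± 61.2. RPS24, a ribosomal protein, had 72.3 ± 7.33 and 239 ± 39.1. Of the 24 tested genes on either side, 7 were higher in PC3 and 11 higher in DU145 (median -0.24), against the same 20.3% and 26.2%. MRPS16, just before the stretch, had a log2 fold change of 0.55. Further out, DNAJC9, ECD and P4HA1 were also higher in PC3 (1.71, 1.55 and 2.36), and MCU, the mitochondrial calcium channel, beyond them had -0.98. On the other side ANXA11 had 1.74, and PRXL2A and TSPAN14 had -2.88 and -2.06.

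**Figure D3:**
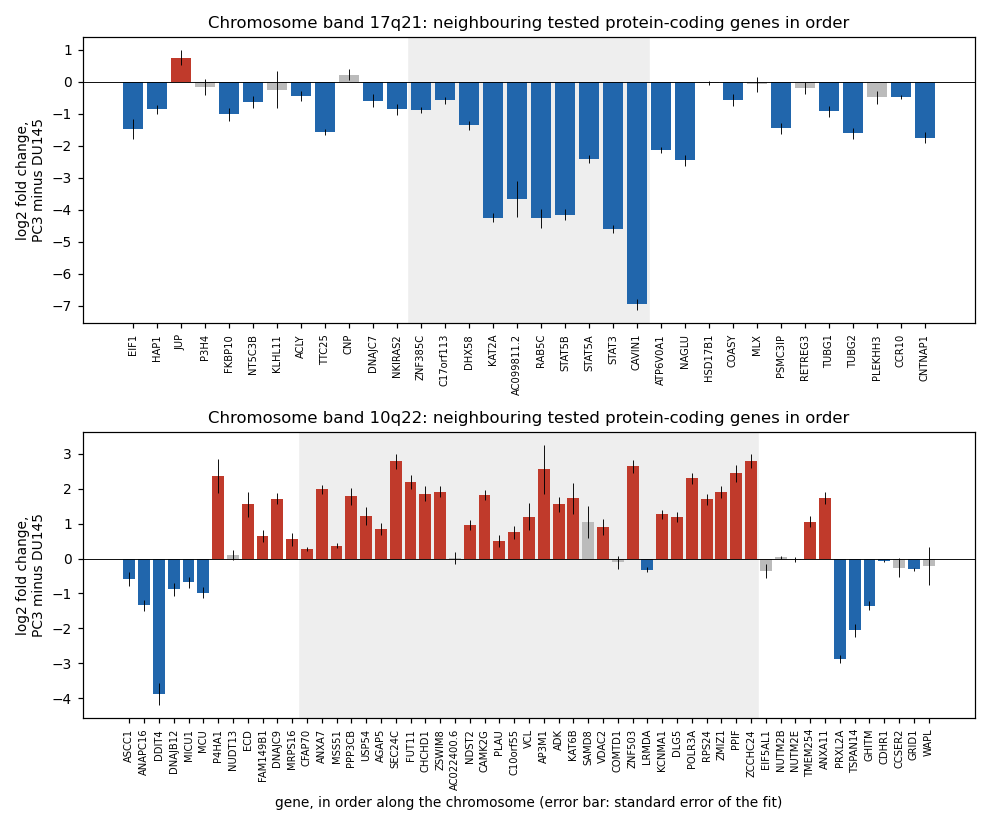
Log2 fold change of PC3 against DU145 (y axis, with the standard error of the fit as error bar) of neighbouring tested protein-coding genes in chromosome order (x axis), around the lowest window on chromosome 17 (upper panel) and the highest windows on chromosome 10 (lower panel). Shading marks the stretch described, red and blue bars are genes past the threshold, and in the lower panel 27 of 31 shaded genes are higher in PC3.

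Among windows that do not overlap those on chromosome 17 described here, the lowest lay on chromosome 1 from HIST2H2BF to SV2A, with 9 of 10 genes higher in DU145 (median -2.07). It holds 8 histone genes that include near-identical copies, so the values of single copies are uncertain. SV2A, a synaptic vesicle protein, had 4.8 ± 1.73 in DU145 and at most 2 reads in PC3. The window that ends with CTNNA1 and SIL1 on chromosome 5 ranked sixth among windows that do not overlap (median -1.29, 7 genes higher in DU145). SIL1, the gene after CTNNA1, had a log2 fold change of -2.25 and HSPA9, the gene before it, -1.71. Over all tested protein-coding genes, 26.2% were higher in DU145. The windows were ranked by the values described, so no test applies to them.

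Single chromosomes also stood apart. On chromosome 9, 36 of 543 tested protein-coding genes (6.63%) were higher in PC3 and 231 (42.5%) higher in DU145, with a median log2 fold change of -0.4. Chromosomes 22, 16 and 15 followed, with medians of -0.3, -0.25 and -0.23. On chromosome X, 148 of 426 genes (34.7%) were higher in PC3 and 63 (14.8%) higher in DU145 (median 0.32), and chromosome 3 had 32.8% and 15.7% (median 0.26). With a GC correction the medians were -0.29 on chromosome 9, 0.35 on X and 0.3 on 3, and -0.13 on the GC-rich chromosomes 22 and 16. Genes of one chromosome are not independent of each other, and these values are a description.

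**Figure D4:**
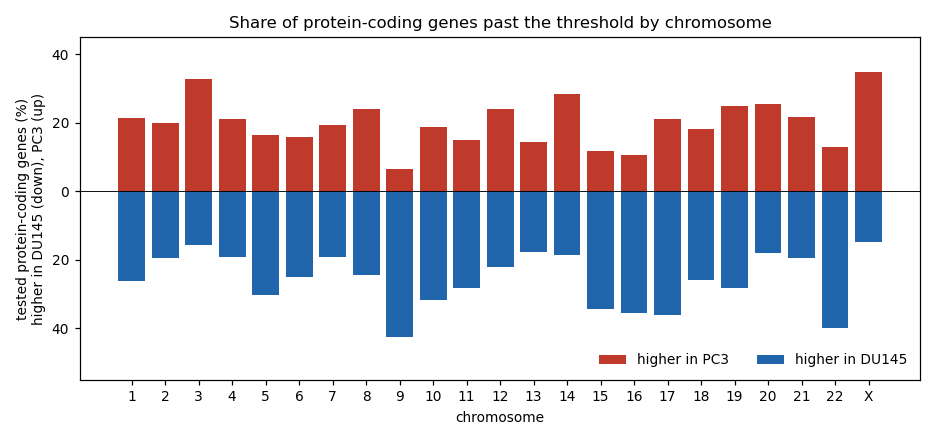
Share of tested protein-coding genes (y axis, %) that were higher in PC3 (red, above 0) or higher in DU145 (blue, below 0) at a limma adjusted p under 0.05, for each chromosome (x axis). Chromosome 9 has the smallest share higher in PC3, 6.63%, and X the largest, 34.7%.

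Genes of epithelial junctions and of the mesenchymal programme held members in both directions. Of 21 tested junction genes, 9 (42.9%) were higher in PC3 and 4 (19%) higher in DU145 (median 0.56), against 20% and 28.3% of all tested genes. Of 22 mesenchymal genes the counts were also 9 (40.9%) and 4 (18.2%), with a median of 0.29. EPCAM, an epithelial adhesion molecule, had 0.418, 0.573, 0.166 and 0.348 in DU145 and 11.1, 9.86, 6.92 and 8.51 in PC3 (log2 fold change 2.87 ± 0.18). CDH1, E-cadherin, had 0.128, 0.297, 0.0851 and 0.211 in DU145 and 0.555, 0.746, 1.42 and 0.427 in PC3. Its log2 fold change was 0.57 ± 0.15 (limma adjusted p = 0.0125), and it did not pass the threshold with either pair of DU145 replicates alone. CLDN1, a tight junction claudin, was higher in DU145, where it varied widely, with 101, 271, 53.5 and 205, against 7.71, 7.93, 6.12 and 5 in PC3 (log2 fold change -4.13 ± 0.45). CDH2, N-cadherin, the adhesion molecule of mesenchymal cells, had 0.00965, 0.0671, 0.0608 and 0.0583 in DU145 and 36.7, 33.3, 33.5 and 26.2 in PC3, a mean 662-fold higher in PC3 (log2 fold change 4.98 ± 0.14). CDH11, another mesenchymal cadherin, had 0.0195 ± 0.0188 in DU145 and 25 ± 8.55 in PC3. Vimentin (VIM), an intermediate filament of mesenchymal cells, was abundant in both, with 61.9 ± 8.37 and 121 ± 20.2 (log2 fold change 0.95 ± 0.16). COL6A1, a collagen VI chain, was higher in PC3 (3.60 ± 0.16), and TWIST1, a mesenchymal transcription factor, had 3.34, whereas its relative TWIST2 had -1.98 ± 0.21 and AXL, a receptor tyrosine kinase, -1.91 ± 0.18. ZEB1, ZEB2, SNAI1 and SNAI2 did not pass the threshold (-0.06, -0.06, 0.12 and 0.59).

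Keratins differed by member. KRT19, a keratin of simple epithelium, had 24.3, 15.6, 31.2 and 19.6 in DU145 and 164, 226, 307 and 229 in PC3 (log2 fold change 3.30 ± 0.25). KRT80 went the other way, with 80.6, 74.4, 116 and 76.9 in DU145 and 3.07 ± 0.947 (SD, n = 4) in PC3 (-4.44 ± 0.21), as did KRT7 (-1.82 ± 0.20) and KRT18 (-1.15 ± 0.21). KRT8, the partner of KRT18, overlapped between the lines (0.26, not past the threshold), and its annotated locus runs into that of KRT18. The basal keratins KRT5, KRT6A and KRT14 and the basal factor TP63 had too few reads to be tested. Their highest counts in any DU145 library were 66, 17, 21 and 11 reads, against 4, 7, 1 and 4 in PC3. Of the 7 basal genes tested, 4 (57.1%) were higher in PC3 and 2 (28.6%) higher in DU145, against 20% and 28.3% of all tested genes. Higher in DU145 were KRT16 and NGFR, with log2 fold changes of -0.37 and -0.60. ITGB4, the integrin of hemidesmosomes, had 3.17, 1.94, 3.56 and 2.7 in DU145 and 26.8, 43.7, 63.2 and 27.7 in PC3 (3.36 ± 0.28), and S100A2 had 7.41 ± 2.01 and 72.8 ± 14.8.

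**Figure D5:**
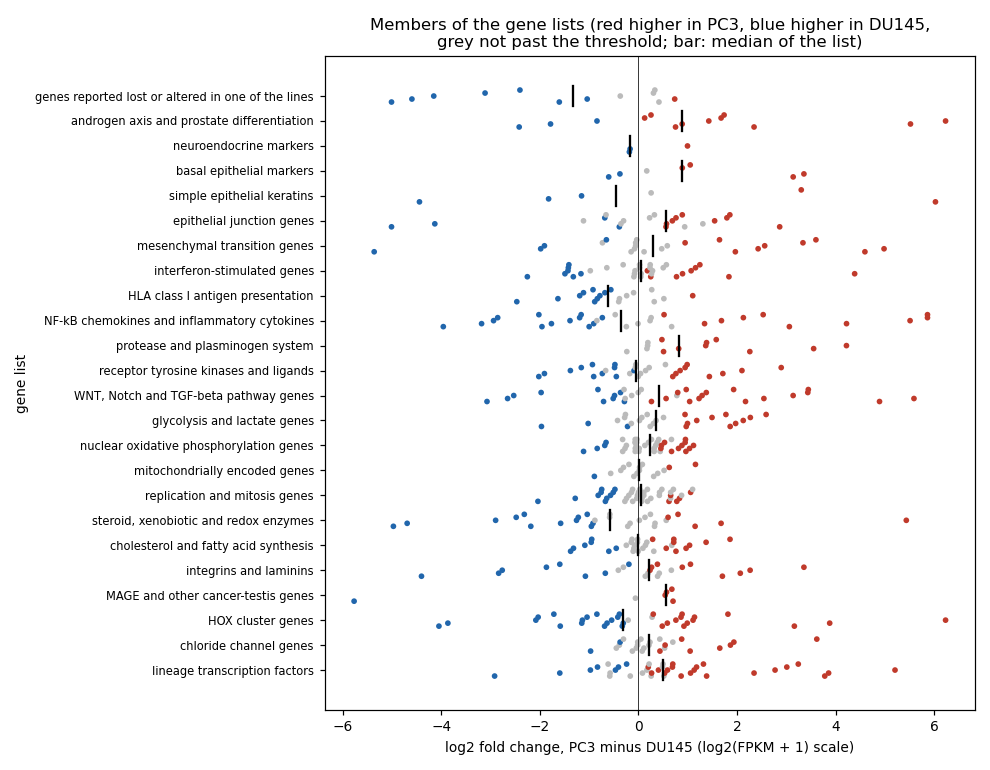
Log2 fold change of PC3 against DU145 (x axis, log2(FPKM + 1) scale) of each tested member of 24 gene lists (y axis), in red where higher in PC3, in blue where higher in DU145 and in grey where the threshold was not passed, with the median of each list as a black bar. Most lists hold members in both directions, and the protease and plasminogen list has 9 members higher in PC3 and 0 higher in DU145.

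Chemokines and cytokines separated the lines by member. Of 30 tested genes of this group, 10 (33.3%) were higher in PC3 and 13 (43.3%) higher in DU145 (median -0.36), against 20% and 28.3% of all tested genes. In 23 the lines did not overlap, which held for 46.5% of all tested genes. CXCL1, a neutrophil-attracting chemokine, had 24.4, 29.7, 18.6 and 13.2 in DU145 and 1106, 1289, 1339.9 and 1305 in PC3 (58.7-fold, log2 fold change 5.87 ± 0.23, limma adjusted p = 2.06e-07). CXCL6 beside it had 0.477 ± 0.158 and 85.4 ± 12.3, and CXCL5 had a log2 fold change of 4.22, whereas CXCL2 and CXCL8 did not pass the threshold (-0.24 and 0.67). IL1B, interleukin-1 beta, had 0.0828, 0.2, 0.0621 and 0.0715 in DU145 and 40.2, 70.3, 91.8 and 22.5 in PC3, with a wide spread over the PC3 libraries (5.51 ± 0.38). In the other direction, IL11, an interleukin-6 family cytokine, had 33.6, 18.8, 46.6 and 25.4 in DU145 and 0.661, 0.644, 0.736 and 2.11 in PC3 (-3.96 ± 0.31). CCL2, a chemokine of monocytes, had 9.62 ± 5.25 and 0.0831 ± 0.0533. SAA1, an acute phase protein, had 9.32 ± 5.56 and 0.197 ± 0.112, and the NF-kB subunits NFKB2 and RELB had log2 fold changes of -2.02 and -1.96.

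Of 18 tested genes of HLA class I antigen presentation, 10 (55.6%) were higher in DU145, against 28.3% of all tested genes, and 1 (5.56%) was higher in PC3, against 20% (median -0.62). HLA-B, a class I heavy chain, had 34.6, 23.5, 26.5 and 21.4 in DU145 and 3.11, 3.11, 4.1 and 5.67 in PC3 (-2.47 ± 0.21). HLA genes share sequence and vary between people, so their values are uncertain. PSMB9, an immunoproteasome subunit, and TAP1, a peptide transporter, were higher in DU145 (-1.63 ± 0.17 and -1.19 ± 0.20). CALR, the chaperone calreticulin, was the 1 gene higher in PC3 (1.10 ± 0.26), with overlap of the lines, and its call was lost with DU145 replicates 3 and 4 alone (0.94, limma adjusted p = 0.0813). Of 32 tested interferon-stimulated genes, 9 (28.1%) were higher in PC3 and 7 (21.9%) higher in DU145 (median 0.05), near the shares over all tested genes. IFITM3, a membrane protein that blocks virus entry, had 0.433, 0.574, 0.94 and 0.767 in DU145 and 30.4, 29.9, 30.5 and 47.3 in PC3 (4.39 ± 0.19), and USP18, which removes ISG15 from proteins, had 20.1 ± 4.47 and 3.39 ± 0.618 (-2.25 ± 0.18).

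Among secreted regulators, INHBB and FST had the largest rises within the WNT, Notch and TGF-beta list, of which 16 of 32 tested genes (50%) were higher in PC3 and 10 (31.2%) higher in DU145 (median 0.41), against 20% and 28.3% of all tested genes. INHBB, the beta B chain of activins, had 0.111 ± 0.0869 in DU145 and 54.1 ± 14.9 in PC3 (5.59 ± 0.21), INHBA had 3.44, and FST, follistatin, which binds activins, had 0.268 ± 0.0797 and 37 ± 6.88 (4.89 ± 0.16). DKK1, a secreted WNT antagonist, had 25.2, 32.9, 17.1 and 29.4 in DU145 and 329, 289, 265 and 270.3 in PC3 (3.45 ± 0.20). NOTCH3, a Notch receptor, and HEYL, a Notch target, were higher in DU145 (-3.07 ± 0.18 and -2.65 ± 0.17), whereas the ligand JAG1 and the target HES1 were higher in PC3 (2.55 and 2.17). ID3 and SMAD7, which respond to BMP and TGF-beta, were higher in DU145 (-2.53 ± 0.32 and -1.97).

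Of 29 tested receptor tyrosine kinases and ligands, 9 (31%) were higher in PC3 and 11 (37.9%) higher in DU145 (median -0.05), against 20% and 28.3% of all tested genes. IGF1R, the receptor of insulin-like growth factor 1, had 4.45, 5.92, 3.07 and 6.1 in DU145 and 0.364, 0.447, 0.515 and 0.345 in PC3 (-2.02 ± 0.19). EFNB2, the ephrin B2 ligand, had 1.55 ± 0.818 and 17.4 ± 2.01, and AREG, an EGF receptor ligand, 27.3 ± 2.94 and 91.4 ± 4.31. EGFR did not pass the threshold (-0.06). MET, the receptor of hepatocyte growth factor, ranged from 1.14 to 15 in DU145 and from 8.5 to 42.9 in PC3, so that the lines overlapped (3.92-fold, limma adjusted p = 0.042). Its call was lost without DU145 replicate 1 or 3 or PC3 replicate 1, 2 or 3 (limma adjusted p 0.0893 to 0.107).

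The protease and plasminogen genes were higher in PC3 in 9 of 13 tested cases (69.2%, against 20% of all tested genes) and higher in DU145 in 0 (against 28.3%, median 0.82, with 6 log2 fold changes over 1). At an unadjusted p under 0.05, and with voom on the recovered reads, 0 genes of this list were higher in DU145. PLAT, the tissue plasminogen activator, had 0.744, 0.622, 0.911 and 0.805 in DU145 and 25.1, 33, 37.8 and 33.3 in PC3 (4.22 ± 0.16). SERPINB5, the serpin maspin, had 0.0526 ± 0.0318 and 11.9 ± 4.07, and MMP14, a membrane-bound matrix protease, 11.9 ± 3.47 and 60.1 ± 10.6. Of 24 integrins and laminins, 9 (37.5%) were higher in PC3 and 8 (33.3%) higher in DU145, against 20% and 28.3% of all tested genes. ITGB3, the beta 3 integrin, had 29.8, 24.2, 32.5 and 30.7 in DU145 and 0.323, 0.319, 0.516 and 0.568 in PC3 (-4.40 ± 0.15). LAMB3, a laminin-332 chain, had 294 ± 84.8 and 44 ± 20.9 (-2.76 ± 0.31), whereas LAMA3, another chain of that laminin, was higher in PC3 (2.07 ± 0.32).

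Of 25 tested glycolytic genes, 11 (44%) were higher in PC3 and 3 (12%) higher in DU145 (median 0.36), against 20% and 28.3% of all tested genes. PGK1, phosphoglycerate kinase, had 50.1, 39.8, 56.8 and 37 in DU145 and 161, 165, 252 and 244 in PC3 (2.13 ± 0.21). LDHA, lactate dehydrogenase A, had 24.4, 29.1, 25.3 and 22.7 and 74.7, 91.4, 98.5 and 118 (1.86 ± 0.16), and HK2, a hexokinase, and the lactate exporter SLC16A3 had log2 fold changes of 1.97 and 1.78. PFKFB4, an enzyme that sets the level of an activator of glycolysis, had 0.727 ± 0.185 and 9.88 ± 3.85. The glucose transporter SLC2A1 went the other way, with 47.9, 37.7, 65.9 and 49.4 in DU145 and 12.6, 9.64, 9.31 and 17.4 in PC3 (-1.97 ± 0.23), as did PFKP, a phosphofructokinase (-1.02 ± 0.22). GAPDH and ENO1 did not pass the threshold (-0.14 and 0.24).

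Of 38 nuclear genes of oxidative phosphorylation, 11 (28.9%) were higher in PC3 and 4 (10.5%) higher in DU145, against 20% and 28.3% of all tested genes, all within 1.12 log2 units of 0 (median 0.23). NDUFB8, a subunit of complex I, was the lowest (-1.11 ± 0.28). ATP5MC3, a subunit of the ATP synthase, was the highest (1.12 ± 0.19), but with the GC correction its limma adjusted p was 0.122. Of 15 genes encoded in mitochondrial DNA, 2 (13.3%) were higher in PC3, 1 (6.67%) was higher in DU145 and 12 did not pass the threshold. Both shares are under the 20% and 28.3% of all tested genes. MT-ND6, which lies on the other strand from the rest of the mitochondrial protein genes, had 839 ± 149 in DU145 and 1864 ± 269.7 in PC3 (1.16 ± 0.18). Of 30 genes of cholesterol and fatty acid synthesis, 9 (30%) were higher in PC3 and 7 (23.3%) higher in DU145. The shares over all tested genes were 20% and 28.3%. SREBF2, the transcription factor of cholesterol synthesis, had 18.7 ± 4.27 and 6.53 ± 1.29 (-1.38 ± 0.20).

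Of 28 tested steroid, xenobiotic and redox enzymes, 12 (42.9%) were higher in DU145, against 28.3% of all tested genes, and 5 (17.9%) higher in PC3, against 20% (median -0.58). CYP24A1, the enzyme that inactivates vitamin D, had 28.8, 40.2, 19.6 and 37.2 in DU145 and no read in any PC3 library, so it was at least 880.1-fold higher in DU145 (log2 fold change -4.97 ± 0.22). AKR1B1, aldose reductase, had 27.9 ± 6.46 and 0.0969 ± 0.0267 (-4.69 ± 0.18). Targets of the oxidative stress factor NRF2 were among those higher in DU145: NQO1, a quinone reductase, had 158, 128, 170.2 and 119 in DU145 and 14.8, 14.4, 16.9 and 30.5 in PC3 (-2.90 ± 0.24), and HMOX1, SRXN1, SLC7A11 and GCLM had log2 fold changes of -2.48, -2.31, -1.58 and -1.26. ALDH1A3, a retinoic acid-forming dehydrogenase, was the opposite, with 7.47, 8.57, 5.99 and 9.56 in DU145 and 405, 443, 388 and 298 in PC3 (48.6-fold, 5.44 ± 0.18).

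HOX genes, the homeobox factors that mark position along the body axis, were read at different levels in both directions. Of 33 tested, 14 (42.4%) were higher in PC3, 17 (51.5%) were higher in DU145 and 2 did not pass the threshold, against 20% and 28.3% of all tested genes past it. In 30 the lines did not overlap, which held for 46.5% of all tested genes. In the HOXA cluster, HOXA9 had 0.145, 0.0722, 0.0545 and 0.113 in DU145 and 14.5, 13.8, 15 and 17.5 in PC3 (3.88 ± 0.14), and HOXA13 had 0.236 ± 0.123 and 10.4 ± 2.91. In the HOXB cluster the 8 tested genes from HOXB2 to HOXB9 were all higher in DU145 (log2 fold changes from -4.05 to -0.54), whereas HOXB13 at the far end of the cluster was higher in PC3 (6.23). HOXB7 had 19, 14.7, 23.2 and 14.2 in DU145 and 0.195, 0, 0.182 and 0.0974 in PC3 (-4.05 ± 0.18), and HOXB9 had 67.6 ± 13.7 and 3.72 ± 0.998 (-3.86 ± 0.21). HOXD9 had 3.33 ± 0.997 in DU145 and no read in PC3. Annotated HOX genes overlap one another, so single values may hold reads of a neighbour.

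Of 38 tested other transcription factors of cell lineage, 20 (52.6%) were higher in PC3 and 7 (18.4%) higher in DU145 (median 0.49), against 20% and 28.3% of all tested genes. NR2F1, an orphan nuclear receptor, had 0.0385 ± 0.0308 in DU145 and 37.9 ± 7.26 in PC3 (5.21 ± 0.16). SOX4 and SIX2 had log2 fold changes of 3.86 ± 0.14 and 3.78 ± 0.14, and SOX9, TBX3 and FOXA2 had 3.01, 3.24 and 2.77. FOXD1, a forkhead factor, was higher in DU145 (-2.92 ± 0.25), as was ETV5, an ETS factor induced by growth factor signalling (-1.59 ± 0.14). Of 40 genes of replication and mitosis, 5 (12.5%) were higher in PC3, 10 (25%) were higher in DU145 and 25 did not pass the threshold (median 0.05), and the share higher in DU145 is near that of all tested genes, 28.3%. MKI67, a proliferation marker, overlapped between the lines and did not pass the threshold. CDKN1A, the inhibitor p21, which halts the cell cycle, had 27.5, 17.4, 39.8 and 19.6 in DU145 and 3.91, 3.49, 5.37 and 10 in PC3 (-2.04 ± 0.34), and CDC6, a replication licensing factor, 28.2 ± 4.34 and 11 ± 1.46 (-1.28 ± 0.15).

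Most neuroendocrine and cancer-testis genes had too few reads to be tested. Of 14 neuroendocrine markers, 3 were tested: ENO2 was higher in PC3 (2.82 ± 0.756 in DU145 and 6.63 ± 1.39 in PC3), and SYP and NCAM1 were higher in DU145 at a mean FPKM under 1 (-0.17 and -0.18). SYP lost its call without PC3 replicate 1 or 3 (limma adjusted p 0.0518 and 0.052). Of 26 cancer-testis genes 6 were tested, with 4 (66.7%) higher in PC3 and 1 (16.7%), XAGE1A, higher in DU145. Over all tested genes the shares were 20% and 28.3%. Of 25 tested chloride channel genes, 8 (32%) were higher in PC3 and 2 (8%) higher in DU145 (median 0.22). The shares over all tested genes were 20% and 28.3%. ANO1, a calcium-activated chloride channel, had 0.0979 ± 0.0165 and 12.5 ± 0.794 (3.62 ± 0.13). Of the 9 CLC genes 8 were tested, with 3 higher in PC3 and 1 higher in DU145, against the same 20% and 28.3%.

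Some markers of other cell types were read in each line, at levels that differed by marker. Summed FPKM of 11 fibroblast markers was 1.39 to 3.42 in DU145 and 4.65 to 8.07 in PC3. COL1A1 and PDGFRA made up most of the PC3 values (3.51 ± 0.389 and 2 ± 1.17). PDGFRB went the other way and was higher in DU145 (log2 fold change -0.45), with 87, 45, 98 and 44 reads there and 2, 7, 5 and 13 in PC3. DCN, LUM, FAP and POSTN had no read in PC3. FAP and POSTN had none in DU145 either, and DCN and LUM had none in DU145 replicates 1 and 2. Of 8 endothelial markers the sums were 0.585 to 1.38 in DU145 and 2.84 to 5.19 in PC3. The 3 tested, PECAM1, KDR and ESAM, were all higher in PC3 (log2 fold changes 1.27, 0.70 and 0.43), against 20% of all tested genes. PECAM1 and KDR would not have been tested on their DU145 reads alone. The other 5 markers had too few reads to be tested, and 3 of them leaned to DU145. VWF had 13, 10, 29 and 7 reads in DU145 and at most 3 in PC3. TEK had 13, 8, 5 and 8 and at most 3, and CDH5 had 2, 17, 12 and 2 and at most 1. CLDN5 and EMCN had at most 4 reads in any library of either line. PECAM1 had 0.198, 0.224, 0 and 0 in DU145, with reads in replicates 1 and 2 alone, and 1.46, 1.81, 2.28 and 1.19 in PC3. The 10 blood markers summed to 5.18 to 16.3 in DU145 and 6.94 to 14.8 in PC3, and in PC3 nearly all of it was CD68, a lysosomal protein that many cell types express. In DU145 replicates 1 and 2, LYZ added up to 8.63 and PTPRC up to 1.35, and both were at 0 in replicates 3 and 4. The epithelial markers EPCAM, CDH1, KRT8, KRT18 and KRT19 had more than 3 reads in a library of each line and summed to 84.1 to 163 in DU145 and 220 to 367 in PC3. The part of the blood and fibroblast reads of single DU145 libraries in other low values was not tested.

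Some genes were read in one line and hardly at all in the other. With at least 10 reads in every library of one line and at most 3 in every library of the other, 298 genes were restricted to PC3 (2.14% of the 13896 genes with at least 10 reads in every PC3 library) and 672 to DU145 (4.54% of 14818). Of these, 226 and 478 were protein-coding. In the benign line BPH-1, 132 of the 298 PC3-restricted genes (44.3%) and 261 of the 672 DU145-restricted genes (38.8%) had at least 10 reads in every library, while 85 (28.5%) and 190 (28.3%) had at most 3 in every library. With the reads of all libraries set to the depth of the shallowest, 321 and 626 genes were restricted, and with at least 20 reads 200 and 441. With at most 0 reads in the other line the numbers were 145 and 298.

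The PC3-restricted protein-coding genes with the most reads were FBN2, HOXB13, SHISA3, PRSS3 and SPDEF. FBN2, the microfibril protein fibrillin 2, had 1523 to 4922 reads in PC3, at most 3 in DU145 and 600 to 741 in BPH-1, at least 1355-fold higher in PC3 than in DU145. PRSS3, a trypsin, had 1460 to 2008 reads in PC3 and 30 to 95 in BPH-1, and SPDEF 1228 to 1635 in PC3 and 0 to 5 in BPH-1. The DU145-restricted genes with the most reads were CYP24A1, BCAT1, TNFRSF10D, STAT5B and LAMA1. BCAT1, the cytosolic branched-chain aminotransferase, had 1064 to 3443 reads in DU145, at most 3 in PC3 and 714 to 1552 in BPH-1, and LAMA1, the laminin alpha 1 chain, had 1018 to 2412 in DU145 and 0 to 5 in BPH-1. Of the remaining genes, BPH-1 had 471 to 1178 reads of CYP24A1, 787 to 1143 of STAT5B, 70 to 234 of TNFRSF10D and 72 to 100 of HOXB13, and at most 5 of SHISA3. Upstream windows of 170 PC3-restricted genes held a median of 15 CG dinucleotides and TATAAA in 12.4%, and those of 328 DU145-restricted genes held a median of 21 and TATAAA in 8.54%. Both groups had fewer CG dinucleotides than the median of 26 over all tested protein-coding genes.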

How the data were processed

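Libraries were made with an NEB Ultra RNA library kit and, per the labels, processed by the authors with CASAVA 1.8, HISAT2 2.1.0 and edgeR against GRCh38/hg38. The role of each tool is not given in the sources used here. The deposited table holds 1 FPKM value per gene and library, normalized by the authors for gene length and library depth. The unit is not named in its header. FPKM, multiplied by gene length (summed distinct exons of GENCODE 29) and by depth, gave whole reads within 0.02 for 95.9% to 96.8% of values up to 30 reads (92.1% to 93.6% in protein-coding genes), so depth and reads were taken from these steps. Intervals and floors cover counting error only, at a floor of 3 reads per library. All columns of the table were assigned to a library by title.

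A gene was tested when 4 or more of the 8 libraries reached the value that 10 reads give at median depth and its reads summed to 15 or more. The test was done with limma 3.58.1 (R 4.3.3) with a mean trend on log2(FPKM + 1), and p-values were adjusted by Benjamini-Hochberg over all tested genes. Single library values were compared with an exact permutation test. The fit was tested on simulated data. Without a GC trend it recovered 8.96% of 1.5-fold, 88.1% of 2-fold and 100% of 4-fold changes. It called 5 unchanged genes there, of 16259 tested. With a GC trend set between the lines, not fitted to these data, the fit called 4121 unchanged genes of 16286 tested. With the GC correction this fell to 11, and recovery of changed genes went from 79.5% to 65.5%. No gene set test was run. The genes named were the 10 protein-coding genes with the largest change in each direction (mean of at least 100 reads, no overlap of lines), up to 3 in each direction per gene list, the listed lost or altered genes, the 5 restricted genes with the most reads per line and the members of the 2 lowest and 2 highest windows. Other members of a list, and LINC02582, were chosen as examples after their values were seen. The members, the 27 gene lists and the tests were chosen with earlier results of these data known. Some genes that this rule names are not reported here. Genes on chromosome Y and XIST were left out. Alternatives are given in the closing section.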

Additional observations from a re-analysis of the deposited data

Results flagged for a closer look

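Of 372 groups of 4 libraries examined, 28 held 1 library that stood apart from the other 3 by Dixon's criterion, which chance alone meets in about 1 of 20 groups. In 12 of the 28 this library was PC3 replicate 4. Its FPKM was above the other 3 for NDUFA1 (272, others at most 205), SEC24C (154, at most 115), POLR3A (96.5, at most 73.8), LAMB3 (75.1, at most 37.5), IFITM3 (47.3, at most 30.5) and NQO1 (30.5, at most 16.9). The same held for FOXD1 (6.11, at most 3.47), USP18 (4.32, at most 3.12), IL11 (2.11, at most 0.736) and HIST2H4B (0.966, at most 0.399). For HIST2H3C (0.233) and LAMA1 (0.00781) it rested on 5 and 2 reads.

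Among the remaining libraries, IFITM2 was high in PC3 replicate 1 (12.4, others at most 7.75) and KRT7 low in PC3 replicate 3 (46.4, others at least 63.9). In DU145, KRT80 was high in replicate 3 (116.4, others at most 80.6), as was HIST2H4B (7.37, at most 4.51), and IL1B was high in replicate 2 (0.200, at most 0.0828). TNFRSF10D was low in DU145 replicate 2 (24.3, others at least 42.9), and STAT3 was low in DU145 replicate 4 (21.2, at least 24.8). CDH2 was low in DU145 replicate 1 (0.00965, from 1 read). A handful of reads in a single library flagged IGFBPL1 (0.132), RAB5C (0.0414), STAT5B (0.0196) and TNFRSF10D (0.0618) in PC3, and SPDEF (0.0533), CLCN4 (0.0193) and MAGEA3 (0.0298) in DU145. The summed FPKM of DU145 replicate 4 was 302456, against 289756 to 291753 in the others.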

How the results depend on the processing

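The 7821 calls kept their sign in each of 24 alternatives that refitted the model, as far as they were tested there (5347 of them under the filter of higher minimum reads), and these made 5210 to 11211 calls. Of the named genes, 164 of 192 stayed on their side of the threshold in every alternative that tested them. The filter on all 8 libraries gave 5210 calls, of which 2894 were higher in DU145, over 12677 genes tested. A required fold change over 2 gave 3165 calls (1345 and 1820). With the within-line component as a covariate, chosen after seeing the data, 4994 genes were higher in PC3. The GC correction gave 4783 and 4767, and the median of ratios 3528 and 3952. COMTD1, not past the threshold, changed sign to 0.17 with libraries at 1 end of that component. Genes restricted to PC3 fell to 145, and those restricted to DU145 to 298, when 0 reads were asked of the other line, and with at least 20 reads the latter were 441. Leaving out 1 library gave 2801 to 3350 genes higher in PC3 and 4125 to 4787 higher in DU145. The cause of these changes was not tested.

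Replicate numbers did not pair the libraries: the deviations of same-numbered libraries had correlations of -0.48, 0.52, 0.05 and -0.67, and not every library correlated best with its own number. With the number as a replicate block 6654 genes were called, 2700 higher in PC3 and 3954 higher in DU145. At this depth, 16210 of 58302 genes had enough reads to be compared.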

Other observations

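Reads of further white blood cell genes followed PTPRC in the DU145 libraries. S100A9 had 287, 300, 0 and 0 reads in DU145 replicates 1 to 4, MNDA had 207, 238, 0 and 0, and FCN1 had 99, 98, 0 and 0. HBB, the beta chain of haemoglobin, had 12, 6, 0 and 0. Of the 82 genes with this pattern, 64 had at most 3 reads in every PC3 library. In DU145 replicates 3 and 4, COL1A2 had 34 and 30 reads and none in the other replicates. MUC5B, an airway mucin, had 10 and 12 reads there, against 6209 to 18521 reads in the PC3 libraries. These values are given without an explanation.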
